A study of Caenorhabditis elegans with 2 samples.

Results

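The MADF family genes of Caenorhabditis elegans were taken as every gene named madf-1 to madf-11 in the Ensembl annotation of WBcel235, the assembly also called ce11. The annotation held 10 of them among 19973 protein-coding genes, with no gene named madf-7. Each gene was examined for peaks of MADF-9, itself a member, in a window from 5 kb upstream to 5 kb downstream of the gene. The peaks came from chromatin immunoprecipitation followed by sequencing (ChIP-seq), in which DNA bound by a protein is pulled down with an antibody and sequenced.

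All material was of 1 kind. Whole worms of strain RW12324, which carries st12324 (madf-9::TY1::EGFP::3xFLAG) on chromosome IV, an insertion made with CRISPR at madf-9, were collected as L4 larvae at 48 hours. They had been synchronised by bleaching and starvation as L1 larvae. The immunoprecipitation used an anti-GFP antibody, and chromatin was sonicated to fragments of 200 to 800 bp. There were 2 samples, labelled as biological replicates, with no further word on whether the worms came from separate cultures. No untagged strain and no control library was analysed here, so signal that the antibody would give without the tag cannot be told apart from signal of MADF-9. Whole larvae mix all tissues, and which cells contributed to a peak was not resolved.

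The MADF domain takes its name from the Myb/SANT-like domain of Adf-1, a transcription factor of Drosophila. It folds into a helix-turn-helix structure related to that of Myb and can bind DNA. In Drosophila many proteins of this type also carry a BESS domain, which mediates contacts between proteins. The members compared here are therefore genes for candidate transcription factors. A peak at one of them is signal of the MADF-9 immunoprecipitation near a gene of the same family, with the limit on controls given above.

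Only madf-9 and madf-11 had a peak within 5 kb in the set called between the replicates. That set held 1637 peaks that passed an irreproducible discovery rate (IDR) of 0.01, a measure of how well a region ranks in both inputs of a comparison. The 2 of 10 members stood beside 17.6% of all protein-coding genes with a summit, the highest point of a peak, in the same window, so the share among the members was close to the background. Both genes had a summit in the promoter, a window that starts 1000 bp before an annotated transcript start and ends 200 bp after it, where 4.71% of all protein-coding genes had one. With 10 genes chosen with the result for madf-9 and madf-11 known, nothing is read from that difference. The same pair was found in each replicate's own set, with 11.9% of all genes in replicate 1 and 9.71% in replicate 2.

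The promoter peak of madf-9 (WBGene00022608, IV:3637079-3640466, plus strand) spanned IV:3636494-3636927, and its summit lay 279 bp upstream of the gene's start. Its signal, the strength value the authors' peak caller gave each region on a scale that is not stated, was 307.0 in the set between replicates. In the replicates' own lists the signal was 175.1 in replicate 1 and 125.3 in replicate 2, with summits 264 and 285 bp upstream of the start. The peak was therefore in place in both replicates, with summits within 15 bp of the joint one. Its joint signal ranked 35 among the 1637 peaks and 18 among the 785 with a summit in a promoter.

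The madf-9 promoter peak was the widest of the whole set. It measured 434 bp, against a median of 260 bp and 386 bp for the next widest. Widths varied little in this set. Of the 1637 peaks, 1488 measured exactly 260 bp and only 5 were wider, so width is a poor measure of how broad the binding was. In replicate 1 the matching region was 232 bp and in replicate 2 it was 117 bp. Both were narrower than the median of their own list, 244 bp in replicate 1 and 230 bp in replicate 2. The DNA at the summit was also rich in G and C. Over 201 bp centred on the summit the share of G and C was 64.68%, with a median of 46.27% over all peaks and only 6 peaks higher. The sequence, read on the strand of madf-9, is printed to show the runs of CG and pyrimidines that make up this composition. Capitals mark an 8-base word that it shares with both madf-11 peaks.

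madf-9 promoter, chrIV:3636700-3636900, plus strand: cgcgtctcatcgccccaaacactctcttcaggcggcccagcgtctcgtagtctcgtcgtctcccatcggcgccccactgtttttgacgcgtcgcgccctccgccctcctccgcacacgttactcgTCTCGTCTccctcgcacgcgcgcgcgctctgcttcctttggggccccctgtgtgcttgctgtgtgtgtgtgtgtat

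**Figure D1:**
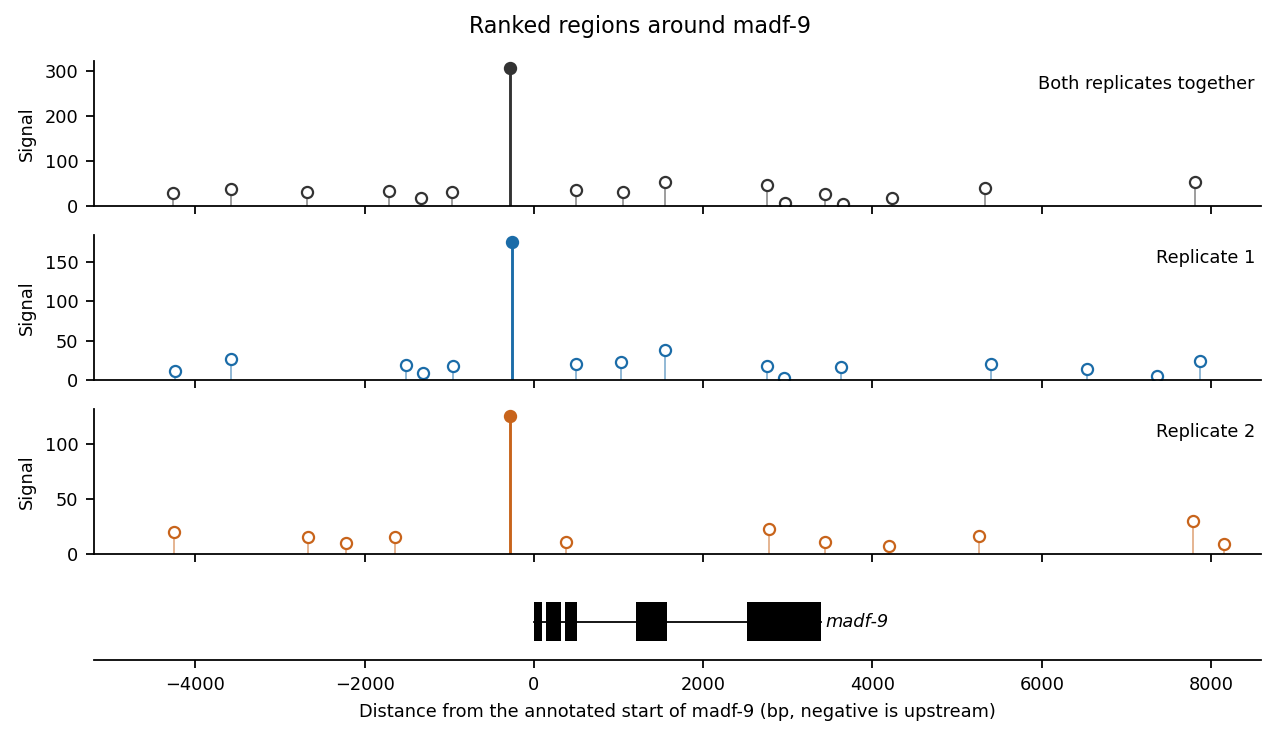
Signal of every ranked region within 5 kb of madf-9 (vertical axis, the authors' value) against distance from the gene's start in bp, for both replicates together, replicate 1 and replicate 2. Filled circles are regions in the thresholded set of that list, open circles are regions that did not pass, and boxes below are exons. The single filled circle in each row lies in the promoter, at 307.0, 175.1 and 125.3, and all others of the joint list lie at or under 54.06.

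Around madf-9 the promoter peak stood alone. Of 17 ranked regions in the joint list within 5 kb of the gene, the other 16 had signals from 4.58 to 54.06, and none of those passed. The nearest gene upstream, ZC416.2, lies on the same strand with 1604 bp between it and the start of madf-9, and the summit lay in the promoter of madf-9 only.

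The replicates' own lists differed in how well their inputs matched at this peak. Each replicate's ranked list gives a signal for 2 inputs of an IDR run, and the authors' file listing ties each list to 1 alignment of that replicate and a control. How the inputs were made from them is not stated in the sources used here. In replicate 1 the inputs gave signals of 91.47 and 79.53, and the region reached the highest −log10 IDR the lists hold, 5.0. In replicate 2 they gave 16.06 and 66.88, and the region passed narrowly, with a −log10 IDR of 2.04 against a threshold of 2. The ratio of 4.17 between the inputs of replicate 2 was the highest of all 911 ranked regions of that replicate that pass the same threshold, where the median ratio was 1.28. The matched region of the first input had its summit 207 bp upstream of the start and that of the second 281 bp upstream. Whether this offset bears on the low value was not tested. The final signals of the replicates were closer. Replicate 1 was 1.40 times replicate 2, and 443 of 1603 peaks with a value in both had a higher ratio.

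madf-11 (WBGene00015468, III:5600381-5603489, minus strand) carried 2 peaks, one inside the gene and one in its promoter. The stronger was the one inside the gene, at III:5602094-5602353, with its summit 1265 bp downstream of the start. It lay in intron 4 of both annotated transcripts, an intron of 569 bp. madf-11 was the 1 member of 10 with a summit inside the gene, where 2.61% of all protein-coding genes had one.

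Intron 4 of madf-11 holds small RNA genes, and the summit lay among them. It was inside the annotated noncoding RNA gene C05D2.17, which runs on the same strand as madf-11, and 45 bp upstream of the 5′ end of C05D2.15, a small nucleolar RNA (snoRNA) gene of 126 bp on that strand. A further noncoding RNA gene, C05D2.16, lies on the other strand with its nearer end 110 bp from the summit. SnoRNAs guide chemical modification of other RNAs, and in worms many lie inside introns of other genes. The peak was 1 of 70 whose summit lies in or within 250 bp of an annotated snoRNA gene, and its signal ranked 25 among them. A peak at this point therefore cannot be assigned to madf-11 rather than to the RNA genes in its intron.

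The intron peak had a signal of 159.4 in the set between replicates, rank 221 of 1637. The signal was 106.1 in replicate 1 and 52.88 in replicate 2, with summits 1258 and 1254 bp downstream of the start. It passed in both replicates' own sets, but at rank 142 of 1002 in replicate 1 and rank 487 of 806 in replicate 2. Replicate 1 was higher by 1.00 on the log2 scale, a ratio of 2.01. Over all 1603 peaks with both values the median log2 ratio was 0.24, the SD was 0.42, and 63 peaks had a higher ratio than this one. The position of the peak was thus shared by the replicates, and its strength was among the less evenly matched.

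The promoter peak of madf-11 was weaker. It spanned III:5603639-5603898, with its summit 280 bp upstream of the start of madf-11, and had a signal of 84.21, rank 912 of 1637. The signal was 41.2 in replicate 1 and 34.27 in replicate 2, a ratio of 1.202. In neither replicate did the region pass that replicate's own threshold, with −log10 IDR values of 0.71 and 1.03 against a threshold of 2, while the comparison between the replicates gave 2.60. Within each replicate's own set, madf-9 was thus the 1 member with a promoter summit, beside 3.19% of all protein-coding genes in replicate 1 and 2.46% in replicate 2.

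This promoter is shared with a divergent gene. The summit also lay 691 bp upstream of the start of xnd-1, a gene on the plus strand needed for normal distribution of meiotic crossovers, and so fell in the promoter window of both. A small noncoding RNA gene, C05D2.14, ends 13 bp from the summit. The peak was nearer to the start of madf-11 than to that of xnd-1, which does not assign it to either. Both madf-11 sequences are printed on the strand of madf-11, so that they can be set beside the madf-9 promoter. Capitals mark the shared word and, in the promoter, a second word treated below.

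madf-11 intron, chrIII:5602124-5602324, minus strand: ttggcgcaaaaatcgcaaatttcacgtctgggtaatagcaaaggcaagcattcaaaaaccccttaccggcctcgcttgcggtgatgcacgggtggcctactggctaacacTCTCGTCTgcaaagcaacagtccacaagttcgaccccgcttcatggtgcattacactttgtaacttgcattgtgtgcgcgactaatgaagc
madf-11 promoter, chrIII:5603669-5603869, minus strand: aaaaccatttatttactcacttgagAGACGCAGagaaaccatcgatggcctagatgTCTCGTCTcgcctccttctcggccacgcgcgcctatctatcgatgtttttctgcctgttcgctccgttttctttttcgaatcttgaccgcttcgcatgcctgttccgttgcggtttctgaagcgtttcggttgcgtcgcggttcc

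**Figure D2:**
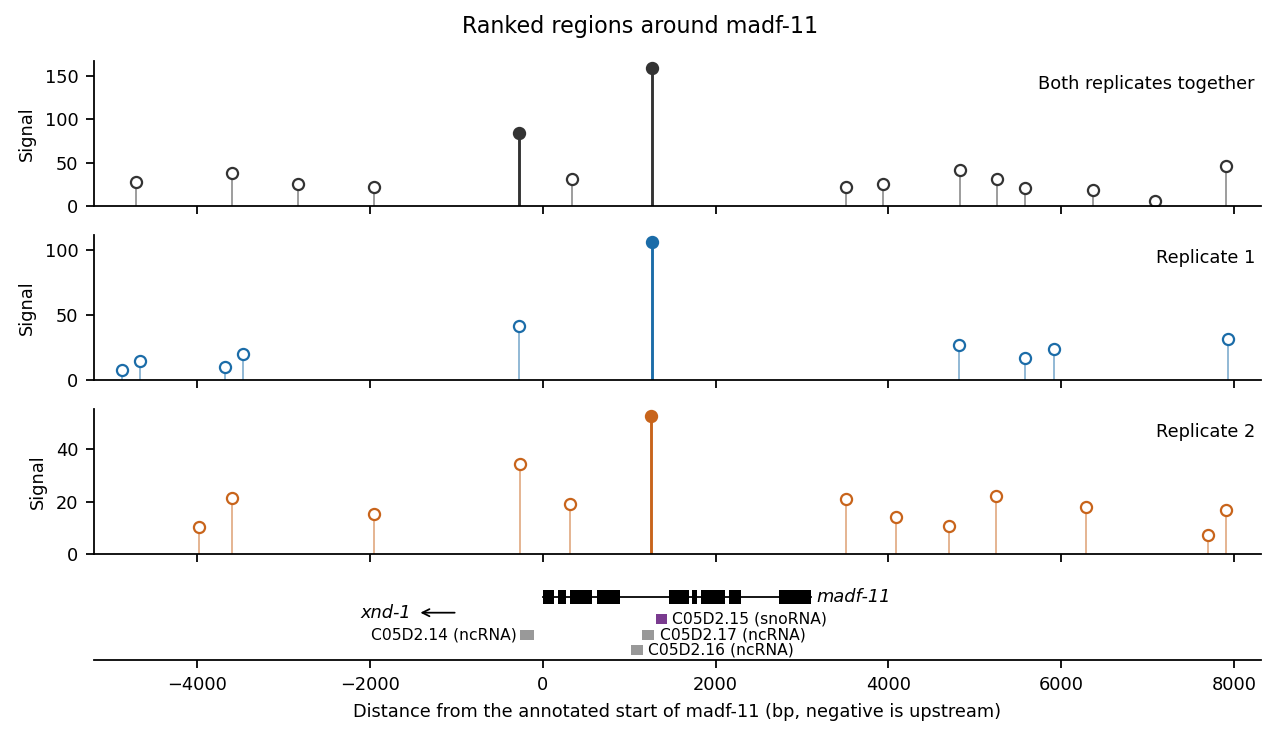
Signal of every ranked region within 5 kb of madf-11 (vertical axis, the authors' value) against distance from the gene's start in bp, for both replicates together, replicate 1 and replicate 2. Filled circles passed in that list, open circles did not, black boxes are exons, the other boxes are small RNA genes, and the arrow shows the direction of xnd-1. The intron peak is filled in all 3 rows, at 159.4, 106.1 and 52.88, and the promoter peak is filled only in the joint row, at 84.21.

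The 3 summits differed in their sequence content. In the 201 bp at each summit the share of G and C was 50.25% in the madf-11 intron and 51.24% in the madf-11 promoter, both nearer to the median of all peaks than the madf-9 promoter. Words were searched on both strands. The word CTGAGCTA was in none of the 3. It was found in 5.31% of all peaks and in 0.22% of equally long windows at the starts of protein-coding genes. Among the 1332 peaks not near a tRNA gene, by the 250 bp limit used for snoRNA genes, only 5 held it (0.375%). All 3 member peaks are of that class, so lacking CTGAGCTA does not set them apart from it. The word AGACGCAG, found in 11.4% of peaks and 2.26% of starts, was in the madf-11 promoter alone, with its first base 75 bp from the summit on the side away from the gene. Both words had been picked from these peaks earlier, so their shares are a description. The A box and B box are elements inside tRNA genes that recruit the RNA polymerase III machinery. Each was searched as a single fixed word, TGGCNNAGT for the A box and GTTCGANTC for the B box. Neither word had an exact match in any of the 3. Forms of the boxes that depart from these words are missed, so this does not show that the boxes are absent. The A box word and B box word occurred in 6.96% and 9.77% of all peaks. In the 1332 peaks not near a tRNA gene the shares were 5.78% and 1.8%. Of the 70 peaks near snoRNA genes, the class of the madf-11 intron peak, 14 held the A box word and 5 the B box word.

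**Figure D3:**
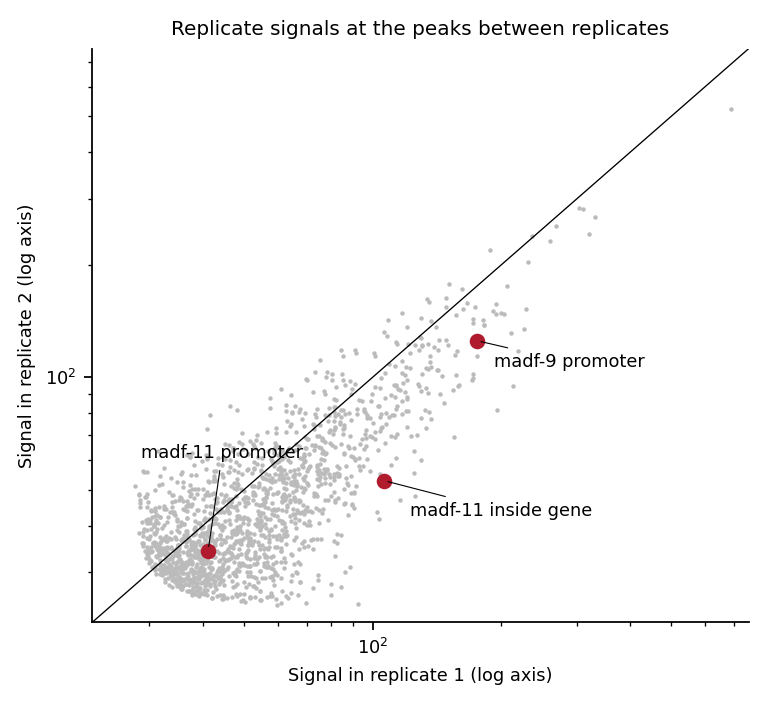
Signal in replicate 2 against signal in replicate 1 for the 1603 peaks of the set between replicates with a region in both lists, on log axes in the authors' units. Red points are the member peaks and the line marks equal signal. The madf-9 promoter peak and the madf-11 promoter peak lie within the cloud, at ratios of 1.40 and 1.202. The madf-11 intron peak lies towards the lower right side of the cloud, at 2.01, and 63 of the 1603 peaks had a higher ratio.

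The other 8 members had no passing summit within 5 kb in any set. Their strongest ranked regions had joint signals of 37.82 at madf-3, 42.8 at madf-2, 43.68 at madf-1, 48.15 at madf-6, 53.15 at madf-8, 54.03 at madf-10, 56.82 at madf-5 and 57.1 at madf-4. Over the 15350 protein-coding genes with ranked regions but no passing summit in the window, the strongest region had a median signal of 42.53, with the 5th percentile at 27.08 and the 95th at 61.63. All 8 members lay inside that range. The nearest to the threshold were madf-5 and madf-8, each with a −log10 IDR of 1.74, and the farthest was madf-3 with 0.33.

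**Figure D4:**
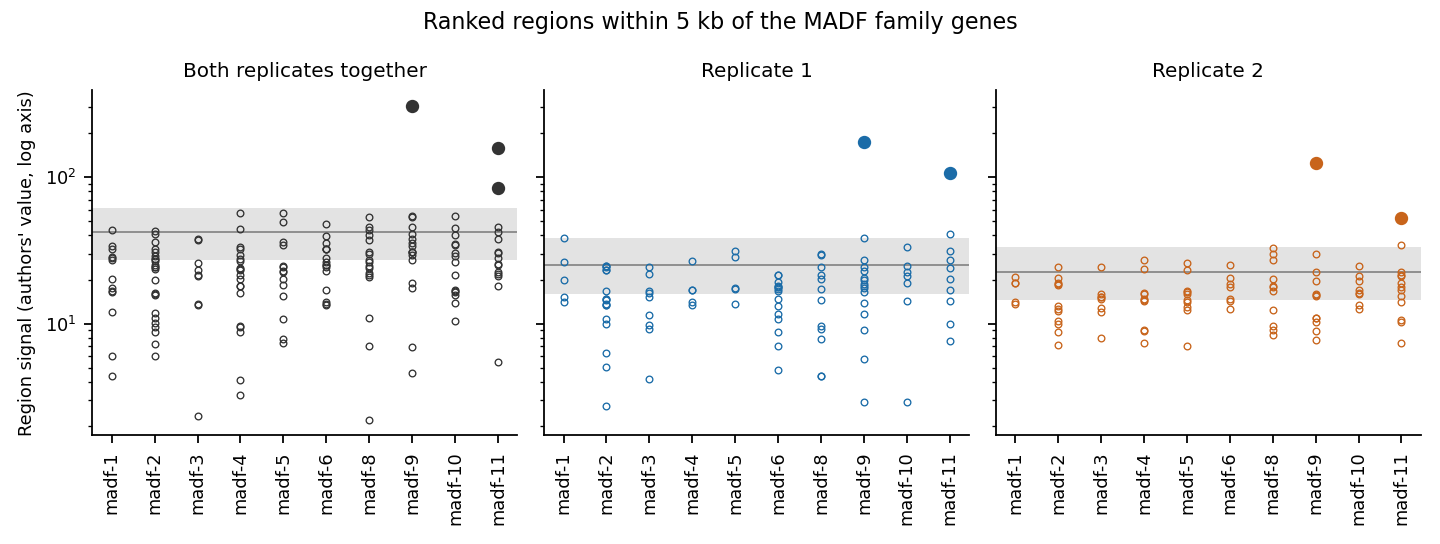
Signal of every ranked region within 5 kb of each MADF family gene (log axis, the authors' value), for both replicates together, replicate 1 and replicate 2. Filled circles passed in that list, the grey band runs from the 5th to the 95th percentile of the strongest region per gene over protein-coding genes with no passing summit, and the line is their median. Filled circles appear at madf-9 and madf-11 only, and the strongest region of the other 8 genes in the joint list lies from 37.82 to 57.1, inside the band.

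In each replicate's own list the strongest region of these 8 genes also lay within the range of genes with no passing summit. The highest signal in the window ran from 21.38 at madf-6 to 38.26 at madf-1 in replicate 1, and from 20.82 at madf-1 to 32.9 at madf-8 in replicate 2. Over the protein-coding genes with no passing summit in the window, the strongest region had a median of 25.27 and a 95th percentile of 38.34 in replicate 1, and a median of 22.61 and a 95th percentile of 33.29 in replicate 2. The values of madf-1 in replicate 1 and madf-8 in replicate 2 were thus just under the 95th percentile. In each replicate all 8 values were below the madf-11 intron peak, at 106.1 and 52.88. The madf-11 promoter peak, at 41.2 and 34.27, was only slightly above the highest of them. The order of the 8 genes differed between the replicates, and with 1 value per replicate their neighbours in the order cannot be separated.

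In the joint list, madf-10 was the 1 of these 8 genes whose strongest region had its summit in the promoter. That region of madf-10 (I:10436895-10437779) lay 316 bp upstream of the start with a signal of 54.03, a distance close to those of the passing promoter peaks, but with a −log10 IDR of 0.59. The replicates' own lists gave other genes. In replicate 1 the strongest regions of madf-3, at 24.33, and madf-8, at 30.0, also lay in the promoter, and in replicate 2 that of madf-10, at 24.6, did not. The highest promoter signal in the joint list was 40.3 at madf-8 (III:3648792-3650832), 36.32 at madf-2 (I:11276448-11280018), 32.14 at madf-6 (I:1011371-1014455), 26.72 at madf-4 (V:9960747-9962494), 21.54 at madf-3 (II:4334748-4339038) and 20.17 at madf-1 (IV:830358-831896). No region of the joint list had its summit in the promoter of madf-5 (II:14573615-14576561), and in replicate 2 alone there was 1, with a signal of 14.49. The windows of all 10 members together held 160 ranked regions, from 9 at madf-3 to 24 at madf-2, with a median of 12 per gene over all protein-coding genes.

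The distance at which a summit is counted changed the answer for madf-4. A passing peak at V:9970202-9970461 with a signal of 142.5 lay 7838 bp upstream of its start, inside unc-41, so that 3 members had a summit when the window was widened to 10 kb. At that width 27.3% of all protein-coding genes had one.

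Other genes with a passing promoter peak were compared by the distance between log2 signals in the joint list and both replicates, over 626 genes with a class symbol. This distance compares peak height only, so a near gene is one with a peak of similar strength. The nearest to madf-9 was his-37, a histone gene, with signals of 310.6, 171.4 and 139.9. Next came lin-54, which encodes a DNA-binding subunit of the DREAM complex, and rpl-12, a gene for a protein of the large ribosomal subunit. These neighbours share 1 summit, with signals of 288.5, 175.4 and 113.7. The nearest to madf-11 apart from xnd-1, which shares its peak, were hmg-1.2, a gene for an HMG-box protein, and vha-13, a gene for a subunit of the vacuolar ATPase. Their joint signals were 80.9 and 79.68.

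The proteins of the family differed in length and in how far they could be aligned. Translated from the annotated coding sequence, they ran from 234 residues for MADF-10 to 516 for MADF-11, and MADF-9 had 333. Of the 45 pairs, ranked by local alignment score, MADF-9 aligned best with MADF-3, the second highest pair of all, over residues 47 to 150 of MADF-9 with 34.31% identity. With MADF-5 it aligned over residues 47 to 147 with 35.64% identity. MADF-11 was more distant. Its best alignment with MADF-9 ranked 24 and covered 38 residues near the C-terminal end of both, 291 to 328 in MADF-9 and 446 to 483 in MADF-11, with 36.84% identity. The next pair of MADF-9 by score was with MADF-4, ranked 6, with 18.52% identity. The genes madf-3, madf-5 and madf-4 had no passing summit within 5 kb, and madf-4 had one only when the window was 10 kb. Whether protein similarity bears on the presence of a peak was not tested.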

How the data were processed

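MADF-9 ChIP-seq was analysed from the deposited peak lists of 2 biological replicates on ce11, per the labels. No read counts were used, so the depth is unknown. For the aligner and the peak caller, names and versions were not given in the sources used here. Each region's deposited signal is the caller's own value, used to describe and rank regions within a list, and joint values carry no error of their own. The deposited score is a scaled IDR, at least 830 in the thresholded sets, and the deposited −log10 IDR, capped at 5, showed which ranked regions pass at 2. The authors ran IDR for each replicate and between the replicates.

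A replicate's value at a joint peak was that of the region in its own ranked list that overlapped the peak most, by 1 bp or more. Annotation was Ensembl release 115, with sequence from the RefSeq copy of WBcel235. Coordinates are 1-based. Proteins were aligned locally with Biopython 1.88 (BLOSUM62, gap opening 11, extension 1). The window code was tested on simulated data. Alternatives were the other series set, each replicate's own set, the upper 50% of peaks by signal, windows of 2 and 10 kb, the promoter and any overlap with a peak.

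Named genes are all members, genes sharing a member's promoter peak, and the 3 genes nearest in signal to each of madf-9 and madf-11. Genes inside or beside a peak were named after their positions were seen. The members, words and lists were chosen with earlier results of these data known. No test across features was run, since there is 1 group.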

Additional observations from a re-analysis of the deposited data

How the results depend on the processing

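The count of 2 members with a summit within 5 kb was the same with the other series set and in each replicate's own set. It was also the same in the upper 50% of peaks by signal, with a 2 kb window, in promoters and with any overlap. With 10 kb it was 3. The other series set also covers both replicates and shares 1371 intervals with the main set, the member peaks among them. Its equal count is therefore no independent check. The share of all protein-coding genes, 17.6%, was 9.71% to 11.9% in the set of 1 replicate, 10.3% in the upper 50% of peaks, 10.8% with 2 kb, 27.3% with 10 kb and 4.71% in promoters. In the set of 1 replicate the signal ran from 125.3 to 175.1 at the madf-9 promoter and from 52.88 to 106.1 at the madf-11 intron peak, the latter chosen after seeing the data. Signals of lists called on different amounts of data are not on a shared scale. The madf-11 promoter peak was in neither replicate's own set, so it has no value there. The 160 ranked regions of the members were 96 to 101 in the list of 1 replicate, 87 with 2 kb and 243 with 10 kb. The cause of these shifts was not tested, apart from the windows, whose size sets them. No paired analysis was possible because there is 1 group. Unknown depth means that the absence of a passing peak at 8 members is not evidence that MADF-9 was absent there.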

Other observations

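The 8-base word AGACGAGA, or its reverse complement TCTCGTCT, occurred once in each of the 3 member sequences, and was the 1 word of that length present in all of them. Its first base as printed lay 25 bp from the summit at the madf-9 promoter, 10 bp at the madf-11 intron and 44 bp at the madf-11 promoter. It was in 34 of 1637 peaks (2.08%) and in 189 of 19973 gene starts (0.946%). The word was picked from these sequences, so its presence in them is no test.

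When 1 difference from the words was allowed, an alternative chosen after seeing the data, the madf-11 intron peak held an A box match 8 bp before the summit and a B box match 37 bp after it, both on the strand of the snoRNA gene C05D2.15. Matches this loose are common, in 45.8% of all peaks for the A box and 28.0% for the B box. The shares were 68.6% and 47.1% in the 70 peaks near snoRNA genes, and 76.4% and 88.9% in peaks near tRNA genes. Each share is for 1 box alone. How often both lie in this order on the same strand was not counted. The madf-11 promoter also held loose matches of both, and the madf-9 promoter held none.

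A passing peak with a signal of 67.26 lay 8953 bp downstream of the start of madf-11, inside F56D2.9, and outside the 5 kb window.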
